A study of Mus musculus with 6 samples.

Results

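The genes of the elastic fibre system described here are 10 of the 21929 genes in the deposited table: elastin (Eln), fibrillin-1 (Fbn1), the fibulins Fbln1, Fbln2 and Fbln5, fibulin-4 (Efemp2), the microfibril-associated glycoprotein Mfap5, and the latent TGF-beta-binding protein (LTBP) genes Ltbp1, Ltbp2 and Ltbp3. They were chosen by gene symbol, and each symbol matched 1 row. The libraries come from L929, a mouse fibroblast line, kept in co-culture with tumour cells. In the 3 Biotin-negative libraries the L929 cells are labelled as without tumour interaction, and in the 3 Biotin-positive libraries they are labelled as having interacted with MFCSTCL, an abbreviation that the labels do not explain. Both groups were in co-culture, so neither is a culture without tumour cells. The labels name no batch that differs between the libraries, and a batch difference between the groups was not tested. Values are FPKM, fragments scaled by gene length and by library size, and libraries are given in the order of their replicate numbers. Being per length, levels can be set beside each other between genes.

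Elastic fibres are built from a core of crosslinked elastin on a scaffold of microfibrils, and fibrillin-1 is the main component of the microfibrils. Fibulins are calcium-binding glycoproteins that join elastin, microfibrils, basement membranes and cells, and fibulin-4 and fibulin-5 bring elastin and lysyl oxidases together during assembly. LTBPs resemble fibrillins, and most of them hold TGF-beta in an inactive complex and anchor it in the matrix. Fibroblasts are a main source of these proteins.

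The series as a whole differed broadly between the groups, and the members have to be read against that. A library's FPKM values summed to between 337771 and 356681, and reads per library are unknown. Across genes, log2(FPKM + 1) correlated at 0.998 to 0.999 between libraries of 1 group and at 0.977 to 0.978 between the groups. Of 11029 tested genes, those with at least 1 FPKM in at least 3 libraries, 73.9% passed limma's test at an adjusted p of 0.05, 37.8% as higher and 36.1% as lower in Biotin-positive cells. For 76.9% of the tested genes the highest library of 1 group lay below the lowest of the other. Separate cultures are not mentioned in the labels, and the p-values therefore rest on a spread between libraries that may be technical. Of 10 fibroblast markers 6 were tested, while Thy1, Fap, Lum and Dcn stayed below 1 FPKM in every library. Of the 6, 4 fell: Col1a1 from 167 ± 7.24 to 90.3 ± 2.76 FPKM, Col1a2 from 370.02 ± 9.59 to 179.9 ± 1.82 FPKM, Pdgfra from 20.5 ± 0.863 to 11.8 ± 0.757 FPKM and Pdgfrb from 33.9 ± 2.14 to 14.4 ± 0.456 FPKM. The other 2 rose, Vim from 658 ± 14.04 to 1418 ± 43.5 FPKM and S100a4 from 539 ± 15.7 to 722 ± 37.7 FPKM, and the whole list summed to 1766 to 1804 FPKM in Biotin-negative and 2389 to 2461 FPKM in Biotin-positive libraries. Of 15 epithelial markers 2 were tested, Krt7 and Krt8, and the list summed to 1.63 to 1.70 FPKM in Biotin-negative and 45.9 to 48.1 FPKM in Biotin-positive libraries. Krt5 was at 0 in every library, and the highest value in any library was 0.0231 FPKM for Epcam and 0.0227 FPKM for Cdh1. The part of the fibroblast marker and keratin differences in the results that follow was not tested.

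Elastic fibre transcripts did not move as a block. Of the 10 members, 8 were tested, and the passing genes split evenly: Mfap5, Fbln2, Ltbp2 and Efemp2 rose, while Fbn1, Fbln5, Ltbp3 and Ltbp1 fell. Both verbs refer to Biotin-positive cells relative to Biotin-negative ones. The 2 others, Eln and Fbln1, were close to 0 throughout. All 8 tested members also showed no overlap between the groups. Both counts stand against the backgrounds of 73.9% and 76.9% above, and since most genes of the table pass, nothing about the members is read from these counts. The median log2 difference was -0.06 over the tested members and 0.01 over all tested genes, and the median absolute difference was 0.41 and 0.31. A change of at least 1 in log2 was less common, with 8.7% of all tested genes past it. It was reached by Mfap5 upward and, narrowly at -1.01, by Fbn1 downward. In bulk libraries, fewer cells of a type and less RNA per cell cannot be told apart.

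**Figure D1:**
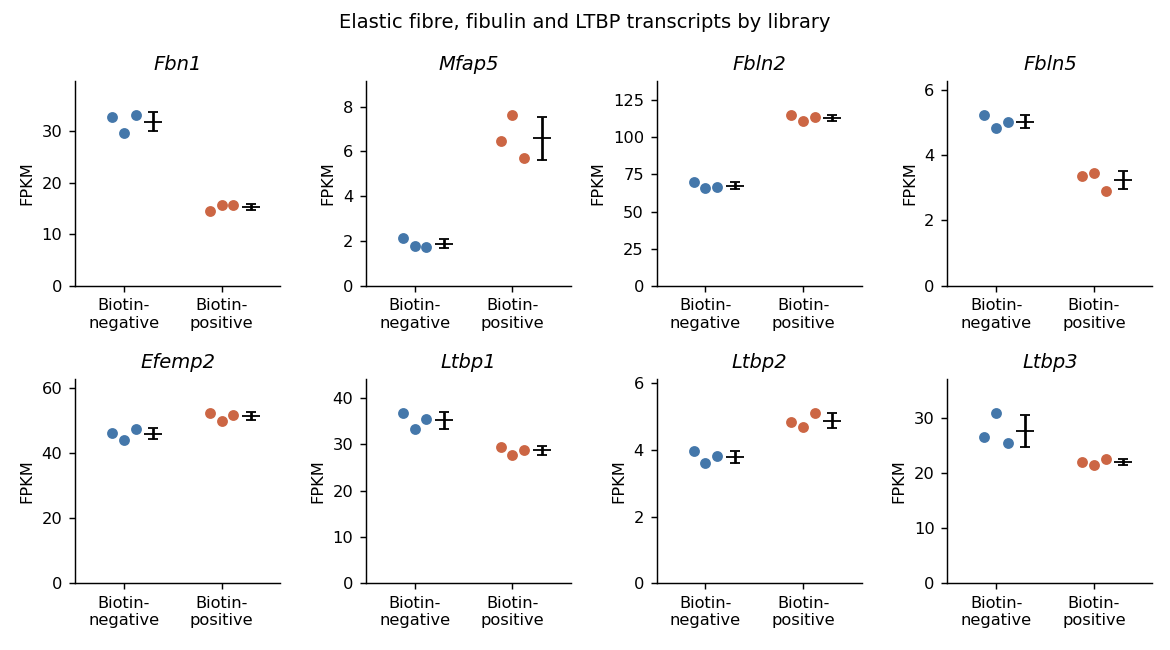
FPKM of the 8 tested members in each library, on axes that start at 0, with points for the 3 Biotin-negative (blue) and 3 Biotin-positive (orange) libraries and black bars for mean ± SD. The groups are separate in every panel, by 14.1 FPKM for Fbn1 and by 0.729 FPKM for Ltbp2.

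The transcript of the core protein of the elastic fibre was at or near 0. Eln (chromosome 5, 134702593 to 134747323 on GRCm38) had a value of 0 in Biotin-negative replicates 1 to 3 and Biotin-positive replicates 1 and 2, and of 0.0118 FPKM in Biotin-positive replicate 3. Lox, the lysyl oxidase that crosslinks elastin and collagen, lay between 0.0344 and 0.0896 FPKM over all libraries. So the name elastic fibre covers here the microfibril, fibulin and LTBP genes, without elastin itself. Fbln1 (chromosome 15, 85205949 to 85286535), a fibulin of basement membranes and elastic fibres, was at 0.0205, 0.0328 and 0.0247 FPKM across the Biotin-negative libraries, against 0, 0.00460 and 0 FPKM across the Biotin-positive ones. These values are far below 1 FPKM, and Fbln1 was not tested. With no filter on low values its limma adjusted p was 0.0515.

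The microfibril genes moved in opposite directions. Fbn1 (chromosome 2, 125300594 to 125507993, minus strand), the scaffold gene, stood at 32.7, 29.7 and 33.1 FPKM across the Biotin-negative libraries, against 14.6, 15.6 and 15.6 FPKM across the Biotin-positive ones. Every Biotin-positive library lay at about the same low level, well under the lowest Biotin-negative one. The mean fell from 31.9 ± 1.85 to 15.3 ± 0.605 FPKM (SD, n = 3 per group), a ratio of 0.479, with a log2 difference of -1.01 (SE 0.0515, limma adjusted p = 3.91e-07). Only 3.27% of tested genes had a lower log2 difference. A share of 20.1% of the annotated exon bases of Fbn1 is also exon of Gm9913 on the opposite strand, and the strandedness of the counting is not given in the sources used here, so reads of that stretch cannot be assigned to a strand.

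Mfap5 (chromosome 6, 122505845 to 122529290) encodes MAGP-2, a small glycoprotein that binds fibrillin and decorates microfibrils. It stood at 2.12, 1.78 and 1.73 FPKM across the Biotin-negative libraries, against 6.45, 7.62 and 5.71 FPKM across the Biotin-positive ones. The groups were far apart, although the Biotin-positive libraries spread more than those of any other tested member relative to their mean. The mean rose 3.52-fold, from 1.87 ± 0.212 to 6.59 ± 0.961 FPKM, with a log2 difference of 1.40 (SE 0.0985, limma adjusted p = 2.87e-06). That log2 value is on the log2(FPKM + 1) scale, which understates the change of a gene at this level, and it exceeded those of 97.6% of tested genes. Per library, the ratio of Mfap5 to Fbn1 FPKM was 0.0647, 0.0598 and 0.0522 in Biotin-negative cells and 0.443, 0.488 and 0.366 in Biotin-positive cells. This ratio and the others given here were chosen after the values were seen and carry no test.

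**Figure D2:**
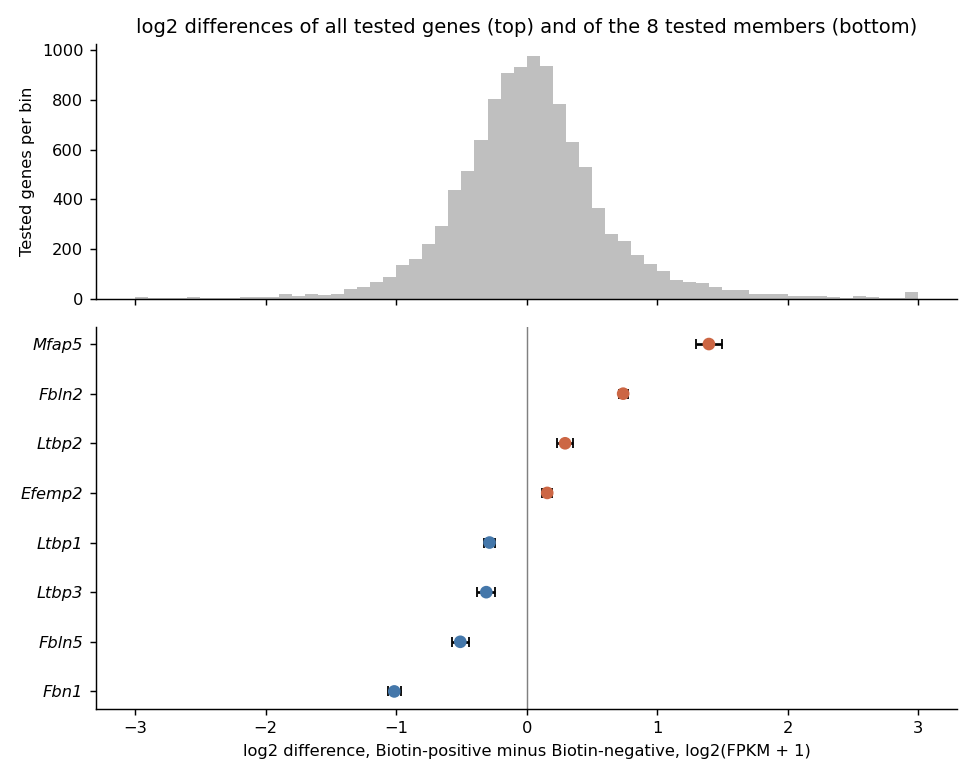
Top, number of tested genes per bin of log2 difference (values beyond 3 are drawn in the outer bins). Bottom, log2 difference ± SE of the 8 tested members. Members lie on both sides of 0, from Fbn1 at -1.01 to Mfap5 at 1.40.

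Among the fibulins, the most abundant one rose. Fbln2 (chromosome 6, 91212455 to 91272540) encodes a long fibulin that binds fibronectin, fibrillin-1 and versican. It stood at 69.98, 65.6 and 66.7 FPKM across the Biotin-negative libraries, against 115, 111 and 113 FPKM across the Biotin-positive ones. The libraries of each group were tightly grouped, and 41.2 FPKM separated the groups. The mean rose from 67.4 ± 2.29 to 113 ± 1.91 FPKM, a ratio of 1.68, with a log2 difference of 0.74 (SE 0.0334, limma adjusted p = 2.02e-07). Fbln2 and Mfap5 share chromosome 6 but lie 31.2 Mb apart, with 181 genes of the table between them.

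The 2 short fibulins that serve elastin assembly went different ways. Fbln5 (chromosome 12, 101746565 to 101819055), which binds elastin, microfibrils and integrins, stood at 5.23, 4.83 and 5.02 FPKM across the Biotin-negative libraries, against 3.36, 3.45 and 2.92 FPKM across the Biotin-positive ones. All Biotin-positive values were below all Biotin-negative values. Its mean fell from 5.03 ± 0.201 to 3.24 ± 0.285 FPKM, with a log2 difference of -0.51 (SE 0.0671, limma adjusted p = 0.000148).

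Efemp2 (chromosome 19, 5473954 to 5482517) encodes fibulin-4, which guides lysyl oxidase to elastin and collagen. It stood at 46.3, 44.1 and 47.3 FPKM across the Biotin-negative libraries, against 52.4, 49.9 and 51.7 FPKM across the Biotin-positive ones. The groups were 2.52 FPKM apart, a small gap beside the level of the gene. The mean rose from 45.9 ± 1.65 to 51.3 ± 1.29 FPKM, a change of 11.7%, with a log2 difference of 0.16 (SE 0.0374, limma adjusted p = 0.00469). This was the smallest change among the tested members, and it did not pass after quantile normalization (log2 difference 0.08, limma adjusted p = 0.0911; 0.00346 to 0.0911 over 16 alternatives). The ratio of Efemp2 to Fbln5 FPKM was 8.86, 9.14 and 9.43 in Biotin-negative libraries and 15.6, 14.5 and 17.7 in Biotin-positive ones.

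The LTBP genes also split. Ltbp1 and Ltbp3, whose proteins bind latent TGF-beta, fell, and Ltbp2, whose protein does not bind it and associates with fibrillin microfibrils, rose. RefSeq start windows were matched for 8 of the 10 members, that is without Eln and Mfap5. The stretches upstream of the first annotated start of the 3 LTBP genes are shown because this family holds changes in both directions. They come from RefSeq on GRCm38.p6 and are written 5′ to 3′ on the strand of the gene, with CpG dinucleotides in capitals. Ltbp1 is at chr17:75005279-75005528 on the plus strand, Ltbp2 at chr12:84876533-84876741 on the minus strand (bases within the gene model are left out) and Ltbp3 at chr19:5740650-5740899 on the plus strand.
Ltbp1: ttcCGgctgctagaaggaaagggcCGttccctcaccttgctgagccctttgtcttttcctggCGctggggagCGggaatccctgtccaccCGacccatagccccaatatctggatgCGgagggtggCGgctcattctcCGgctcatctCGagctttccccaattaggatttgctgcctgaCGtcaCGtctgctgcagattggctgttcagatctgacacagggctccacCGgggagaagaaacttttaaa
Ltbp2: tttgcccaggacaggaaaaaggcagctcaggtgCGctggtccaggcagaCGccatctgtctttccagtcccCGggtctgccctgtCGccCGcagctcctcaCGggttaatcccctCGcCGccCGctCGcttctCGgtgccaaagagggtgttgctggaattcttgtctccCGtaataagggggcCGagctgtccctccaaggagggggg
Ltbp3: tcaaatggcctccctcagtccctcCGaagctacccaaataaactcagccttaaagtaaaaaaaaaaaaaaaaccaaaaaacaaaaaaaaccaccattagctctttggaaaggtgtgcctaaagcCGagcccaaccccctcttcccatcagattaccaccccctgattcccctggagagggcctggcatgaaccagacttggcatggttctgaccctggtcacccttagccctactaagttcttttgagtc
Over the printed stretches, CpG dinucleotides numbered 12 in 250 bases for Ltbp1, 13 in 209 for Ltbp2 and 2 in 250 for Ltbp3. The median over all 32851 RefSeq windows of 250 upstream bases was 6. At the first start of the 8 matched members the count ran from 2 to 21, and 7 of the 8 lay above that median. In the windows of Fbn1, Fbln2 and Ltbp2 all 250 bases are annotated as exon, of these or of other genes. The Fbn1 and Fbln2 windows lie inside the gene models, so they are not sequence upstream of the whole gene. Ltbp1 and Ltbp3, which both fell, stand on opposite sides of the median CpG count of 6. The 13 member windows, alternative starts included, held no TEAD motif (GGAATG, present in 12.6% of all windows) and no AP-1 motif (TGANTCA, 6.75%) on either strand. A TATA motif (TATAAA, 12.4%) was not found either, and the E-box CACCTG (17.2%) occurred once, beginning 223 bases before the start of Ltbp2. No match says only that these letters are not in these windows.

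Ltbp1 (chromosome 17, 75005568 to 75392512) stood at 36.8, 33.2 and 35.5 FPKM across the Biotin-negative libraries, against 29.5, 27.7 and 28.8 FPKM across the Biotin-positive ones. The lowest Biotin-negative library was above the highest Biotin-positive one by 3.69 FPKM. The mean fell from 35.2 ± 1.82 to 28.7 ± 0.920 FPKM, with a log2 difference of -0.28 (SE 0.0457, limma adjusted p = 0.000494). RefSeq gives this gene a second, internal start, and a gene-level FPKM does not separate long from short transcripts.

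Ltbp3 (chromosome 19, 5740904 to 5758532), which lies 258 kb from Efemp2, stood at 26.5, 30.9 and 25.4 FPKM across the Biotin-negative libraries, against 22.1, 21.4 and 22.6 FPKM across the Biotin-positive ones. Biotin-negative replicate 2 was the highest, and the other 2 Biotin-negative libraries were still above every Biotin-positive one. The mean fell from 27.6 ± 2.93 to 22.0 ± 0.594 FPKM, with a log2 difference of -0.31 (SE 0.0680, limma adjusted p = 0.00306). Ltbp3 and Efemp2 lie on the same strand with 16 genes between them, of which 13 were tested, 5 rose and 3 fell. Over all tested genes 37.8% rose and 36.1% fell, and nothing about the locus is read from these counts.

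Ltbp2 (chromosome 12, 84783212 to 84876532), the lowest of the 3, stood at 3.95, 3.59 and 3.81 FPKM across the Biotin-negative libraries, against 4.82, 4.68 and 5.10 FPKM across the Biotin-positive ones. The groups were separate by 0.729 FPKM. The mean rose from 3.79 ± 0.181 to 4.87 ± 0.215 FPKM, with a log2 difference of 0.29 (SE 0.0587, limma adjusted p = 0.00179). Of its annotated exon bases, 9.34% are also exon of an antisense RNA gene, with the same limit on strand as for Fbn1.

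The fourth gene of the family, Ltbp4, is no member but binds latent TGF-beta as well. It fell from 41.7 ± 0.656 to 20.5 ± 0.517 FPKM, with a log2 difference of -0.99 (limma adjusted p = 5.15e-08), and it was above Ltbp1 in Biotin-negative cells and below it in Biotin-positive cells. Summed over Ltbp1, Ltbp3 and Ltbp4, the level was 105, 105 and 103 FPKM in Biotin-negative libraries and 72.4, 68.9 and 72.1 FPKM in Biotin-positive ones. The TGF-beta ligand genes Tgfb1, Tgfb2 and Tgfb3 together stood at 21.2, 19.9 and 19.8 FPKM and at 23.1, 22.3 and 23.97 FPKM. The ligand genes did not move together: Tgfb1 rose from 16.1 ± 0.638 to 19.7 ± 0.913 FPKM (limma adjusted p = 0.000881), Tgfb3 fell from 4.20 ± 0.215 to 3.37 ± 0.119 FPKM (limma adjusted p = 0.00446), and Tgfb2 was too low to be tested. The ratio of the sums was 5.15 ± 0.171 in Biotin-negative and 3.08 ± 0.0616 in Biotin-positive cells (SD, n = 3 per group). Ratios of transcripts say nothing of protein or of free TGF-beta.

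The order of levels within each group changed most for Mfap5 and Fbln5. In Biotin-negative cells it ran Fbln2, Efemp2, Ltbp1, Fbn1, Ltbp3, Fbln5, Ltbp2, Mfap5, Fbln1 and Eln, and Fbn1 and Ltbp3 were the only neighbours whose libraries overlapped. In Biotin-positive cells it ran Fbln2, Efemp2, Ltbp1, Ltbp3, Fbn1, Mfap5, Ltbp2 and Fbln5, with Eln and Fbln1 last and overlapping near 0. Mfap5 moved from rank 8 to rank 6 and Fbln5 from rank 6 to rank 8, and Ltbp2 stayed at rank 7 between them. Fbn1 dropped by 1 rank, below Ltbp3.

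Summed over the 10 members, the level was 224, 214 and 219 FPKM in Biotin-negative libraries and 248, 241 and 246 FPKM in Biotin-positive ones. Without Fbln2 the direction of the sum turned, from 151 ± 2.77 to 132 ± 1.48 FPKM. Fbln2 made up 30.8 ± 0.415% of the summed level in Biotin-negative and 46.2 ± 0.153% in Biotin-positive cells. Fbn1 made up 14.6 ± 0.618% and 6.23 ± 0.315%, and the ratio of Fbln2 to Fbn1 went from 2.12 ± 0.0963 to 7.43 ± 0.410. Efemp2 held nearly the same share, 21.0 ± 0.567% and 20.9 ± 0.243%, with libraries that overlapped. The ratio of Ltbp1 to Ltbp3 overlapped as well, at 1.29 ± 0.185 and 1.30 ± 0.0315.

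**Figure D3:**
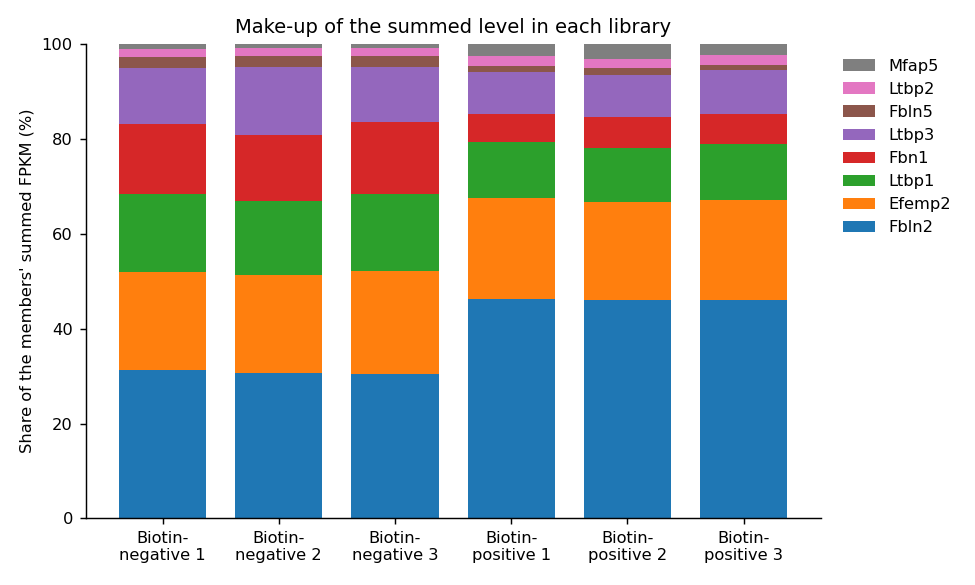
Share of the members' summed FPKM taken by each of the 8 tested members in each of the 6 libraries; Eln and Fbln1 are too low to be drawn. Fbln2 takes 30.5 to 31.3% in Biotin-negative and 46.04 to 46.3% in Biotin-positive libraries, and Fbn1 shrinks from 13.9 to 15.1% to 5.87 to 6.46%.

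A list of 17 other fibrillin, fibulin, LTBP, EMILIN and microfibril-associated genes was set beside the 10 members. Of these genes 9 were tested and 8 were too low, and of the 9, 7 fell, 0 rose and 2 did not pass in limma. Over all tested genes 36.1% fell and 37.8% rose. The median log2 difference was -0.48 over the 9 genes and 0.01 over all tested genes, and nothing particular to the list is read from this. The 7 include Mfap1a and Mfap1b, which despite their name encode a splicing factor. The count of higher genes was 0 at an unadjusted p of 0.05 as well, and 1 with no filter on low values. Emilin1, an elastin microfibril interface protein that also restrains TGF-beta processing, fell from 56.9 ± 2.21 to 21.1 ± 0.384 FPKM, and Emilin2 from 81.3 ± 3.40 to 58.0 ± 0.493 FPKM. Fbln7 fell from 3.80 ± 0.103 to 1.26 ± 0.107 FPKM and the hemicentin gene Hmcn2, a fibulin-family member, from 6.08 ± 0.539 to 3.13 ± 0.356 FPKM. Efemp1, fibulin-3, had means of 26.6 ± 0.253 and 28.1 ± 1.48 FPKM, a difference that did not pass (limma adjusted p = 0.149). Fbn2 and Mfap2, the second fibrillin and MAGP-1, stayed below 1 FPKM, so that of each pair only Fbn1 and Mfap5 were tested. Near-identical matches cover 55.5% and 69.2% of the transcripts of Mfap1a and Mfap1b, so their values are uncertain.

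**Figure D4:**
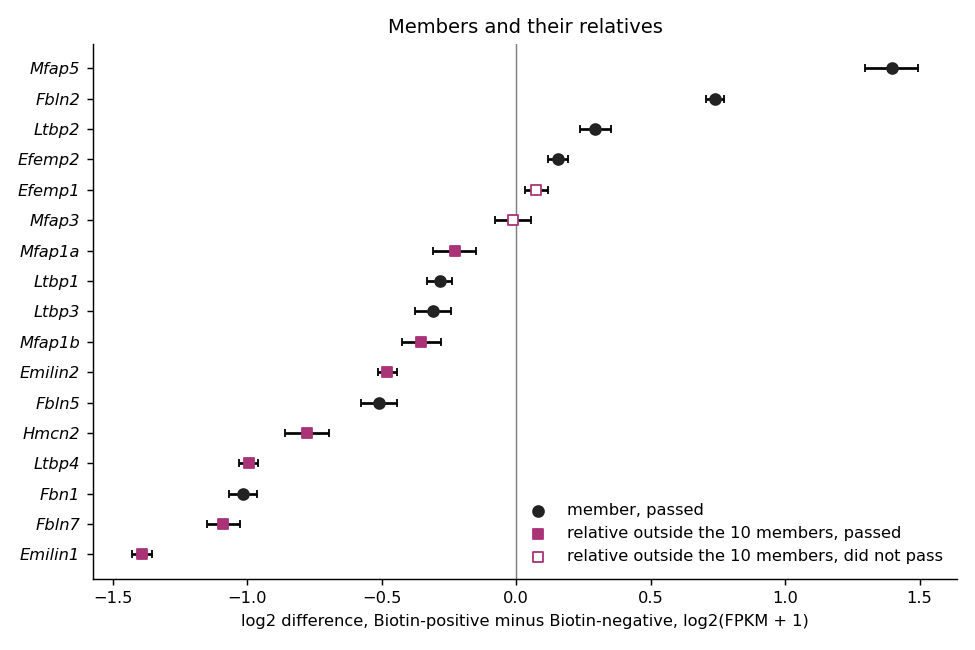
log2 difference ± SE of the 8 tested members (circles) and of the 9 tested relatives (squares), with open squares for the 2 that did not pass. The passing genes to the right of 0 are members, namely Mfap5, Fbln2, Ltbp2 and Efemp2, and the 7 passing relatives lie to the left.

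Enzymes that act on these fibres changed in both directions. Of 5 lysyl oxidases 4 were tested. Loxl1, which crosslinks elastin with fibulin-5, fell from 55.9 ± 2.48 to 38.9 ± 0.539 FPKM, Loxl3 rose from 31.7 ± 1.31 to 37.5 ± 0.372 FPKM, and Loxl2 and Loxl4 did not pass. Of 10 ADAMTS-like and ADAMTS genes tied to microfibrils 4 were tested, with 1 rise and 3 falls. Over all tested genes 37.8% rose and 36.1% fell, and nothing particular to either list is read from the counts. Adamts10, which binds fibrillin-1, fell from 5.16 ± 0.274 to 2.15 ± 0.304 FPKM and Adamtsl5 from 38.8 ± 1.66 to 27.1 ± 0.273 FPKM. Adamtsl4 fell from 9.51, 8.31 and 8.86 FPKM to 5.87, 5.91 and 6.08 FPKM. Adamts6, the closest homologue of Adamts10, rose from 0.652 ± 0.186 to 1.94 ± 0.176 FPKM. Adamts6 reached testing only through the Biotin-positive libraries, so it could enter the count only as a rise. Without any 1 of the Biotin-positive libraries, Adamts6 did not reach testing, since 2 libraries were then at 1 FPKM, and the count of rises was 0.

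Of 14 proteases that cleave elastic fibre proteins or their partners 8 were tested, of which 2 rose and 6 fell. The shares over all tested genes were 37.8% for rises and 36.1% for falls, and nothing particular to the proteases is read from the counts. The membrane metalloproteinase gene Mmp14 fell from 116 ± 5.44 to 59.3 ± 1.57 FPKM, the elastase gene Cela1 from 26.9 ± 0.986 to 14.5 ± 1.69 FPKM and the cathepsin gene Ctsb from 138 ± 1.16 to 91.1 ± 3.32 FPKM. Adamts5, whose product cleaves versican and fibulin-2, fell from 3.01 ± 0.0778 to 1.93 ± 0.144 FPKM, and Adamts1 rose from 0.690 ± 0.170 to 4.88 ± 0.291 FPKM. Adamts1 reached testing only through the Biotin-positive libraries, so it could enter the count only as a rise. Without any 1 of the Biotin-positive libraries Adamts1 did not reach testing, and the count of rises was 1.

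The list of matrix partners held the largest falls among the lists described here. Of its 13 genes 9 were tested, of which 8 fell and 1, Col8a1, rose, with a median log2 difference of -1.36. Over all tested genes 36.1% fell, 37.8% rose and the median was 0.01, and nothing particular to the list is read from this. Fibronectin, Fn1, on which fibrillin and LTBP1 assemble, fell from 2017 ± 84.6 to 172 ± 4.53 FPKM. The collagen VI genes Col6a1, Col6a2 and Col6a3 fell from 300.4 ± 8.55 to 24.6 ± 0.667, from 216 ± 7.84 to 14.7 ± 0.514 and from 103 ± 4.88 to 32.1 ± 0.582 FPKM. Col18a1 fell from 79.97 ± 2.24 to 30.6 ± 0.835 FPKM. Each of these 5 genes fell further than Fbn1, the member with the largest fall, with log2 differences of -1.36 to -3.79.

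Genes that release TGF-beta from its LTBP complex or respond to it were mixed. Of 18 ligand and activation genes 11 were tested, of which 5 rose, 3 fell and 3 did not pass. Among all tested genes the shares were 37.8% for rises and 36.1% for falls. Thrombospondin 1, Thbs1, an activator of latent TGF-beta, rose from 3.59 ± 0.236 to 11.1 ± 0.554 FPKM, and the plasminogen activator gene Plat from 6.30 ± 0.417 to 13.6 ± 0.431 FPKM. Furin, which cleaves the TGF-beta precursor, rose from 20.1 ± 0.480 to 25.4 ± 1.22 FPKM. Bmp1, a protease that can cut LTBP1, fell from 23.96 ± 1.11 to 11.3 ± 0.516 FPKM, and the integrin gene Itgb5 from 56.7 ± 3.91 to 46.1 ± 0.497 FPKM. After rescaling to an equal sum per library the list had 5 falls.

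Of 19 TGF-beta receptor, SMAD and response genes 17 were tested, of which 8 rose, 6 fell and 3 did not pass. Beside these counts stand 37.8% rises and 36.1% falls over all tested genes. Smad7, an inhibitory SMAD, rose from 1.92 ± 0.107 to 5.29 ± 0.495 FPKM. Ccn2 had a value of 0 in each Biotin-negative library and 1.97, 1.40 and 1.76 FPKM in Biotin-positive ones. It reached testing only through the Biotin-positive libraries, so it could enter the count only as a rise. Without Biotin-positive replicate 1, 2 or 3 in turn, Ccn2 was not tested and the list had 6, 7 and 6 rises. Tgfbi fell from 132 ± 5.35 to 26.6 ± 1.17 FPKM and the receptor gene Tgfbr2 from 15.7 ± 0.521 to 7.46 ± 0.475 FPKM. These are the libraries in which Ltbp1 and Ltbp3 fell and Ltbp2 rose.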

How the data were processed

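The authors deposited 1 table of FPKM values with a column per library, each matched to its sample by title. Per the submitters' processing notes the tools were cutadapt 1.9.1, HISAT2 2.2.1 and HTSeq 0.6.1. The program that made the FPKM values, their denominator and the strandedness are not given in the sources used here. Those notes name GRCm39, but 99.1% of the genes shared with GENCODE vM21 have its GRCm38 coordinates, all 10 members included, so coordinates are given as GRCm38. Steps of single reads were looked for in 1300 low genes above 0 in every library. Between Biotin-negative replicates 1 and 2, 1.38% of them lay at the commonest ratio. Genes at 0 in any library were left out and no expected share was computed, so this cannot decide whether such steps are present. FPKM is not a count, so values were tested as log2(FPKM + 1) with limma 3.58.1 in R 4.3.3 (lmFit, eBayes with a trend, two-sided). A gene entered when 3 or more libraries reached 1 FPKM, and p-values were adjusted by Benjamini-Hochberg over the 11029 genes that entered. Procedures were tested on simulated data with 50 changed genes at each of several log2 sizes. At a size of 0.25, 52% were recovered, with 82% at 0.5, 100% at 1 and 96% at 2. Of the calls, 6.25% were false. Far fewer genes were changed there than pass here, so these rates need not hold for the real libraries.

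The members and gene lists were chosen with earlier results of these data known. Named genes are all 10 members and, per list, up to 5 passing genes with the largest log2 difference; Ltbp4, Tgfb1 to Tgfb3 and others named beside a count were added after their values were seen, and 1 gene of the TGF-beta response list that the rule picks is not reported here. Near-identical matches were searched with blastn 2.17.0 (98% identity, at least 100 bases) between longest coding transcripts, and 2 members had one, over 20.4% of the Fbn1 and 3.51% of the Ltbp3 transcript. Alternatives were other pseudocounts, filters, scalings and variance priors, the replicate number as a block, and leaving out each library. Python 3.11.15 made the tables and figures.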

Additional observations from a re-analysis of the deposited data

How the results depend on the processing

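Of the 8 tested members, 7 kept their direction and passed under every alternative that could test them (15 or 16 each); Fbln5 and Ltbp2 were not tested at a minimum of 5 FPKM. Efemp2 kept its direction and did not pass after quantile normalization (log2 difference 0.08, limma adjusted p = 0.0911); the cause was not tested. With each library left out in turn, log2 differences ran from 1.30 to 1.48 for Mfap5, 0.72 to 0.77 for Fbln2 and -1.06 to -0.98 for Fbn1. Requiring a log2 difference of at least 1 as well left 1 member higher and 1 lower, and 583 and 376 of all tested genes. The lower one, Fbn1, was short of that size without Biotin-negative replicate 1 or 3 (-0.99 each). The same held without Biotin-positive replicate 1 (-0.98). With the replicate number as a block, 8040 genes passed against 8153, and all 8 tested members still passed. Deviations of same-numbered libraries correlated at 0.012 to 0.037, so no effect shared by same-numbered libraries was seen. Whether libraries were prepared in pairs cannot be told from these correlations. Precision rests on 3 libraries per group, since depth is unknown. Counts in the gene lists moved by over 1.5 times in these cases. Without any 1 of the Biotin-positive libraries, higher ADAMTS genes went from 1 to 0 and higher proteases from 2 to 1. With no filter on low values, more genes were tested: higher relatives went from 0 to 1, ADAMTS genes from 1 to 3 higher and from 3 to 5 lower, TGF-beta ligand and activation genes from 5 to 8 higher and matrix partners from 1 to 2 higher. At a minimum of 5 FPKM, fewer were tested: higher ADAMTS genes went from 1 to 0, TGF-beta response genes from 8 to 4 and proteases from 2 to 1. An equal sum per library moved the falling ligand and activation genes from 3 to 5. At a log2 difference of at least 1, the falling relatives went from 7 to 2, lysyl oxidases from 1 higher and 1 lower to 0 and 0, ADAMTS genes from 1 and 3 to 0 and 0, ligand and activation genes from 5 and 3 to 2 and 1, response genes from 8 and 6 to 3 and 1, proteases from 2 and 6 to 1 and 0, and rising matrix partners from 1 to 0.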
